A study of Mus musculus with 2 samples.

Results

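The 10 serotonin receptor genes Htr1a, Htr1b, Htr1f, Htr2a, Htr2c, Htr3a, Htr4, Htr5a, Htr6 and Htr7 were followed through total RNA of the aged mouse cortex. They were chosen by gene symbol, joined by gene identifier, and all 10 were found among the 55536 annotated genes. The series holds a single group, cortex of the left hemisphere from male B6CASTF1/J mice (F1 hybrids of a B6 and a CAST parent) at 18 to 20 months of age, with no treatment named in the labels. It was sequenced as replicate 2 and replicate 1, which carry the same donor identifier and separate biosample identifiers, and 300 ng of RNA entered each library. The labels do not say whether the libraries came from separate animals, so the spread between them may be partly or wholly technical.

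Serotonin reaches the cortex through long axons of neurons in the raphe nuclei of the brainstem, and cortical cells answer it through a family of receptors. Most members are G protein-coupled receptors: the Htr1 and Htr5 types act through Gi and Go, which lower cyclic AMP, the Htr2 types through Gq, which activates phospholipase C, and Htr4, Htr6 and Htr7 through Gs, which raises cyclic AMP. Htr3a is the exception, the subunit of a cation channel that serotonin opens directly.

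Over annotated genes, replicate 2 held 29897545 expected counts (read numbers estimated for each gene by the authors) and replicate 1 held 22827996. Levels are in TPM, the deposited transcript abundance per length, with a common total for every library. At 1 TPM or more in both libraries, 10 of 10 receptor genes were detected, against 26.5% of all annotated genes and 58.5% of nuclear protein-coding genes. The members were chosen with earlier results of these data known, so this count may follow from the choice. Of 4 further serotonin receptor genes outside the 10, 1 was detected in both libraries. The markers of excitatory cortical neurons were present, and Slc17a7, the vesicular glutamate transporter of those cells, had 562 TPM in replicate 2 and 581 TPM in replicate 1. Markers of striatal projection neurons were also present and were unequal: 10 of 10 were higher in replicate 2, and their summed level was 438 TPM in replicate 2 and 222 TPM in replicate 1. In bulk tissue, more cells of a type and more RNA per cell cannot be told apart.

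The receptor genes were expressed at low to moderate levels, 57.4 TPM in all in replicate 2 and 51.5 TPM in replicate 1. Htr2c and Htr2a, the Gq-coupled pair, stood first and second in both libraries, and Htr4 stood last of the 10 in both. The Gq pair held 39.1% of the summed receptor TPM in replicate 2 and 35.4% in replicate 1. The 4 Gi/o-coupled genes together held a like share, 35.6% in replicate 2 and 40.4% in replicate 1. Among the remaining genes, the 3 Gs-coupled ones held 19.3% and 16.8%, and the channel subunit Htr3a held 6.10% and 7.38%, in replicate 2 and replicate 1. Which of the Gq pair and the Gi/o group held more therefore differed between the libraries.

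**Figure D1:**
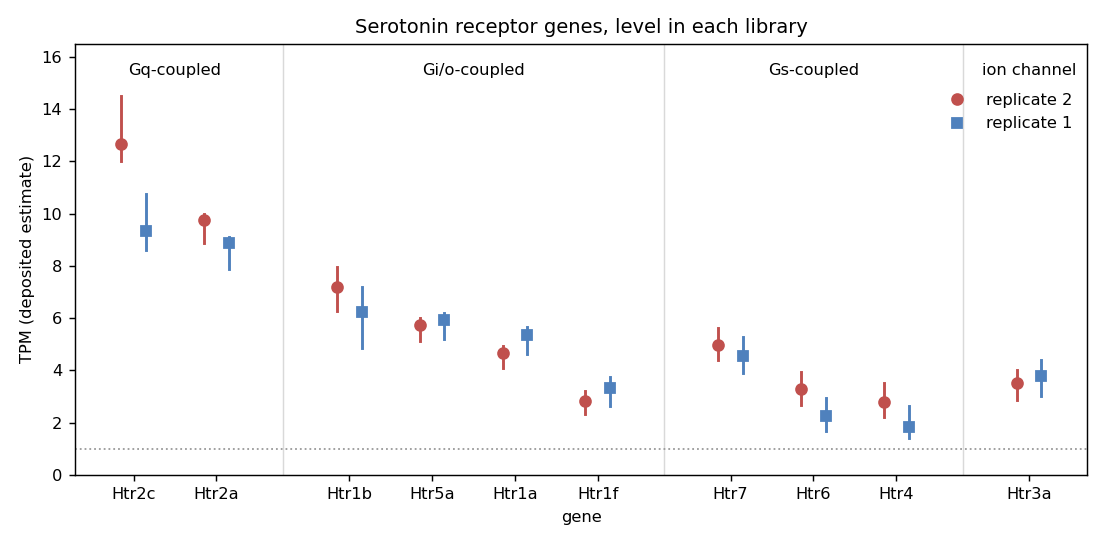
Deposited TPM (y axis, linear) of the 10 receptor genes (x axis), grouped by coupling, in replicate 2 (circles) and replicate 1 (squares); vertical lines are the deposited credibility intervals and the dotted line is 1 TPM. Htr2c and Htr2a stand highest in both libraries, and the libraries' intervals are apart for Htr2c alone.

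Htr2c (ENSMUSG00000041380.13, chromosome X, 146962513 to 147197277, plus strand, GRCm38) encodes a Gq-coupled receptor whose transcript is known to be edited from adenosine to inosine and to be spliced at the edited place. The annotation joins 7 transcripts to it. Htr2c-201 and Htr2c-202 encode the same full-length receptor of 459 codons, whereas Htr2c-207 lacks 95 bases and its reading frame ends after 172 codons. The sequence of Htr2c-201 (GENCODE M21, plus strand, 5′ to 3′) is shown because the split between full-length and truncated message turns on it, with the bases that Htr2c-207 lacks in capitals (chrX:147169676-147169770).
Htr2c-201: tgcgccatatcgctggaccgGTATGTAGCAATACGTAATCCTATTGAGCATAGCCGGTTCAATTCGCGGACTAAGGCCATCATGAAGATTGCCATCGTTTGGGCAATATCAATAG
The codons in which the known edited adenosines lie start 10 bases into that stretch, at codon 157 (chrX:147169686-147169700, capitals below), so a message without the stretch also lacks the edited codons.
Htr2c edited codons: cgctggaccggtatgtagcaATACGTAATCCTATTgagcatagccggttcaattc
The deposited tables give no base calls, and how far these codons were edited was not analysed here.

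Htr2c had the highest level of the family, 12.7 TPM (credibility interval 12 to 14.5) in replicate 2 and 9.35 TPM (8.61 to 10.8) in replicate 1. Replicate 2 was higher and the intervals did not overlap. The mean was 11.01 ± 2.35 TPM (SD, n = 2), above 38.6% of the protein-coding genes detected in both libraries. Its 1201 expected counts in replicate 2 and 632 in replicate 1 gave a log2 ratio, replicate 2 over replicate 1, of 0.58 (95% counting interval 0.44 to 0.72), 1.5-fold. These ratios are of TMM-scaled counts, and a gene is called higher or lower in replicate 2 where the interval, which covers counting error only, excludes 0.

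Full-length forms led the Htr2c message in both libraries. Htr2c-201 and Htr2c-202 together held 81.5% of the gene's TPM in replicate 2 and 78.8% in replicate 1, a mean of 80.1 ± 1.90% (SD, n = 2). The truncated Htr2c-207 held 15.5% in replicate 2 and 15.7% in replicate 1, on 185 and 99.4 expected counts. Its share was thus almost equal in libraries whose total Htr2c differed. A second deposited quantification, which has the layout of kallisto and was made directly from the reads, put Htr2c-207 lower, at 8.36% in replicate 2 and 8.80% in replicate 1. Between the methods this share therefore moved by far more than between the libraries.

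Htr2a (ENSMUSG00000034997.5, chromosome 14, 74640840 to 74709494, plus strand), the Gq-coupled receptor at which serotonergic hallucinogens act, came second. It has a single annotated transcript of 471 codons. Its level was 9.74 TPM (8.87 to 9.97) in replicate 2 and 8.88 TPM (7.89 to 9.12) in replicate 1, a mean of 9.31 ± 0.61 TPM (SD, n = 2). The intervals overlapped. On counts, 1110 in replicate 2 and 727 in replicate 1, it was called higher in replicate 2, with a log2 ratio of 0.27 (0.13 to 0.40). On deposited TPM the log2 ratio was 0.13, and the counting interval moved to that ratio included 0.

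The highest member of the Gi/o group was Htr1b (ENSMUSG00000049511.5, chromosome 9, 81628291 to 81633828, minus strand), a receptor known on axon terminals, where it limits transmitter release. It had 7.18 TPM (6.26 to 7.96) in replicate 2 and 6.24 TPM (4.84 to 7.21) in replicate 1, a mean of 6.71 ± 0.66 TPM (SD, n = 2). Expected counts were 644 in replicate 2 and 338 in replicate 1, and the log2 ratio was 0.59 (0.39 to 0.78), a call of higher in replicate 2. On deposited TPM the log2 ratio was 0.20. Of the gene's 2 transcripts, which share a reading frame of 386 codons and differ in length (4724 bases for Htr1b-202 and 1273 for Htr1b-201), the long Htr1b-202 held 91.6% of the TPM in replicate 2 and 71.6% in replicate 1. It held 76.9% in the second quantification in replicate 2 and 76.1% in replicate 1. An antisense gene, D430036J16Rik, overlaps Htr1b on the other strand and had 69 counts in replicate 2 and 30 in replicate 1; the sources used here do not say whether counting used the strand, so reads of the overlap are uncertain.

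Htr5a (ENSMUSG00000039106.6, chromosome 5, 27842149 to 27855088, plus strand), a less studied Gi/o-coupled receptor of 357 codons, had nearly equal levels. It was at 5.75 TPM (5.14 to 6.01) in replicate 2 and 5.94 TPM (5.19 to 6.21) in replicate 1, a mean of 5.845 ± 0.134 TPM (SD, n = 2), the smallest SD of the 10 genes. Its counts were 628 in replicate 2 and 466 in replicate 1, and the log2 ratio, 0.09 (-0.09 to 0.26), was not called.

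Htr1a (ENSMUSG00000021721.5, chromosome 13, 105443639 to 105448122, plus strand), which opens GIRK potassium channels on neurons and serves as the autoreceptor of raphe neurons, is encoded by 1 exon and 421 codons. Its level was 4.65 TPM (4.09 to 4.94) in replicate 2 and 5.34 TPM (4.61 to 5.68) in replicate 1, a mean of 4.995 ± 0.488 TPM (SD, n = 2). The deposited level was nominally lower in replicate 2, with overlapping intervals. Counts were 422 in replicate 2 and 348 in replicate 1, with a log2 ratio of -0.07 (-0.27 to 0.14), not called.

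Htr1f (ENSMUSG00000050783.5, chromosome 16, 64924729 to 65105854, minus strand), a Gi/o-coupled receptor and a target of migraine drugs in humans, was the lowest of the group. It had 2.82 TPM (2.31 to 3.20) in replicate 2 and 3.31 TPM (2.63 to 3.75) in replicate 1, a mean of 3.065 ± 0.346 TPM (SD, n = 2). The intervals overlapped, and the log2 ratio of its 145 and 122 counts in replicate 2 and replicate 1 was -0.10 (-0.45 to 0.27), not called. In the second quantification this ratio had the other sign, 0.09.

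The 4 most abundant members share a signature of their receptor class, the Asp-Arg-Tyr codons at the inner end of the third membrane helix, and are set beside each other here from that motif onward. Each line gives the motif codons in capitals and the 13 codons that follow, in transcript sense (chrX:147169671-147169718 plus, chr14:74645089-74645136 plus, chr9:81632082-81632129 minus and chr5:27842860-27842907 plus, GRCm38).
Htr2c motif: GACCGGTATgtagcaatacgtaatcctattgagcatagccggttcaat
Htr2a motif: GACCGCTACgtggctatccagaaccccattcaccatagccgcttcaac
Htr1b motif: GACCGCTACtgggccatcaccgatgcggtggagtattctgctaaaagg
Htr5a motif: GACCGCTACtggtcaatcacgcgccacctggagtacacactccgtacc
Htr2a shared 35 of 48 bases and 5 of 16 codons with Htr2c, its fellow Gq-coupled gene. Htr1b shared 21 bases and 2 codons with it, and Htr5a 20 bases and 2 codons. The edited codons of Htr2c lie inside this window.

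Htr7 led the Gs-coupled genes (ENSMUSG00000024798.15, chromosome 19, 35958734 to 36057507, minus strand). Its level was 4.98 TPM (4.39 to 5.60) in replicate 2 and 4.56 TPM (3.91 to 5.27) in replicate 1, a mean of 4.77 ± 0.30 TPM (SD, n = 2). The intervals overlapped. With 296 counts in replicate 2 and 192 in replicate 1, the log2 ratio was 0.28 (0.01 to 0.55). This call of higher in replicate 2 rests on the scaling. It was lost with DESeq2 size factors (0.25), with spike-in scaling (0.15) and with TMM factors of protein-coding genes (0.23). On deposited TPM the log2 ratio was 0.13, and the counting interval moved to that ratio included 0.

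Htr7 transcripts differ at their ends and in an added exon, and the estimates divided them differently. Htr7-205 holds 5 bases that Htr7-202 lacks (capitals, chr19:35969304-35969308, minus strand, GRCm38), inside which its reading frame meets a stop, so that Htr7-205 has 435 codons and Htr7-202 has 448.
Htr7-205: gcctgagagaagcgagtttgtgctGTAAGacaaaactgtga
Htr7-202: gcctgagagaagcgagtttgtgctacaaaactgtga
Htr7-204, which the annotation classes as a target of nonsense-mediated decay with 198 codons, carries a 58-base exon that Htr7-202 lacks (chr19:36041555-36041612, minus strand).
Htr7-204: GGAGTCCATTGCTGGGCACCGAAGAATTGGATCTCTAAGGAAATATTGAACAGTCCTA
In the RSEM-layout table Htr7-204 led with 42.8% of the gene's TPM in replicate 2 and 51.6% in replicate 1. Htr7-202 followed with 28.3% in replicate 2 and 35.6% in replicate 1, and Htr7-205 had 17.2% in replicate 2 and was listed at 0 in replicate 1. By the second quantification, Htr7-202 had under 1% in both libraries, and Htr7-205 had 28.1% in replicate 2 and 36.4% in replicate 1. Htr7-206, also classed as a decay target (344 codons), rose from 11.7% to 33.9% in replicate 2 and from 5.68% to 24.4% in replicate 1 between the first and second quantification. Htr7-201 (470 codons) was at 0 in replicate 2 and at 7.14% and 5.24% in replicate 1. These tables thus do not settle which of the 2 coding ends, 5 bases apart, the cortex used, whereas Htr7-204 held at least 33.8% of the TPM in all 4 estimates.

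Htr6 (ENSMUSG00000028747.10, chromosome 4, 139061108 to 139075570, minus strand), a Gs-coupled receptor found on neuronal cilia, had the largest ratio of TMM-scaled counts between the libraries of the 10 genes; on deposited TPM Htr4 was ahead (0.61 against 0.54), and in the second quantification Htr2c and Htr6 were both at 0.61. Its level was 3.28 TPM (2.66 to 3.93) in replicate 2 and 2.26 TPM (1.69 to 2.93) in replicate 1, a mean of 2.77 ± 0.72 TPM (SD, n = 2), with overlapping intervals. On 141 counts in replicate 2 and 69 in replicate 1 the log2 ratio was 0.68 (0.26 to 1.12), 1.6-fold, and it was called higher. Its 2 transcripts encode the same 440 codons, and Htr6-202 led in all 4 estimates.

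Htr4 (ENSMUSG00000026322.9), the third Gs-coupled gene, had the lowest mean of the 10 genes; in the second quantification Htr1f was lowest, at 3.61 TPM against 3.63 TPM for Htr4. Its level was 2.80 TPM (2.20 to 3.51) in replicate 2 and 1.84 TPM (1.39 to 2.63) in replicate 1, a mean of 2.32 ± 0.68 TPM (SD, n = 2). The intervals overlapped, and the log2 ratio of its 115 counts in replicate 2 and 67 in replicate 1 was 0.43 (-0.01 to 0.89), just short of a call. Receptors that differ at their carboxy-terminal end are known for this gene. Htr4-204 (387 codons) led in replicate 2 with 41.3%, Htr4-202 (363 codons) led in replicate 1 with 38.9%, and Htr4-203 was listed at 0 in all 4 estimates. In the second quantification the lead was the other way round, Htr4-202 in replicate 2 and Htr4-204 in replicate 1. The longer transcript Htr4-201 (388 codons) held 24.7% in replicate 2 and 38.15% in replicate 1, on 65.5 and 47.6 counts. In the second quantification Htr4-201 held 30.6% in replicate 2 and 32.1% in replicate 1. It had more counts than Htr4-202 or Htr4-204 in all 4 estimates. With 26.5 counts of Htr4-204 in replicate 2 and 6.94 in replicate 1, no order of these forms was detectable at this depth.

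The channel subunit Htr3a (ENSMUSG00000032269.8, chromosome 9, 48899213 to 48911099, minus strand) is known in the cortex from interneurons of the caudal ganglionic eminence. It had 3.5 TPM (2.87 to 4.0) in replicate 2 and 3.80 TPM (3.02 to 4.41) in replicate 1, a mean of 3.65 ± 0.21 TPM (SD, n = 2). The intervals overlapped, and the log2 ratio of its 138 counts in replicate 2 and 107 in replicate 1 was 0.02 (-0.35 to 0.40), not called; its sign changed with the scaling. Markers of those interneurons were detected in 7 of 7 cases, summed to 140 TPM in replicate 2 and 143 TPM in replicate 1, and had a median log2 ratio of 0.11, with 2 higher and 1 lower. The 2 higher were also the most abundant, Cnr1 (55.65 TPM in replicate 2 and 52.9 TPM in replicate 1) and Reln (35.1 TPM and 34.8 TPM). The sum therefore mostly follows these 2 genes. The 1 lower was Adarb2, at -0.25 (-0.38 to -0.11).

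Htr3a has a long and a short coding form, which differ by 18 bases, printed in capitals for Htr3a-201 (chr9:48899991-48900008, minus strand, GRCm38).
Htr3a-201: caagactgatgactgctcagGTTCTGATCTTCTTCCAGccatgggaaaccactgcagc
Htr3a-202: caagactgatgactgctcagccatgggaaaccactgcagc
The short form Htr3a-202 (483 codons) held 81.6% of the TPM in replicate 2 and 91.3% in replicate 1. The long form Htr3a-201 (489 codons) held 18.4% and 8.68%, on 26.5 and 9.72 counts in replicate 2 and replicate 1. The second quantification also had the short form ahead, at 87.4% in replicate 2 and 81.8% in replicate 1, and there replicate 2 had the larger share of it. The short form thus led in all 4 estimates, and which library held more of it did not repeat.

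**Figure D2:**
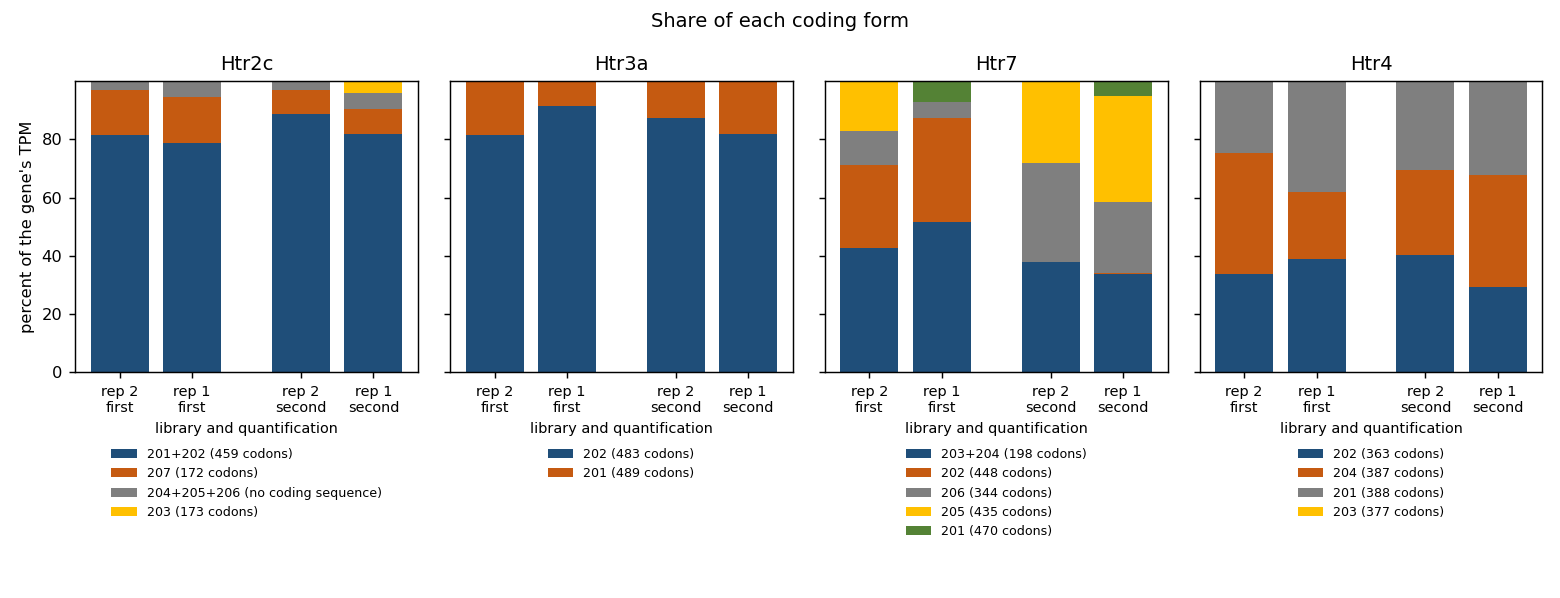
Share of the gene's TPM (y axis, percent, stacked to 100) held by each coding form of Htr2c, Htr3a, Htr7 and Htr4, in replicate 2 and replicate 1 of the first (RSEM-layout) and of the second deposited quantification. One form leads all 4 bars for Htr2c and Htr3a, whereas the forms of Htr7 and Htr4 change order between bars.

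Among the 6 receptor genes with 2 or more annotated transcripts, Htr1b, Htr2c, Htr3a and Htr6 had 1 leading transcript in all 4 estimates, and Htr4 and Htr7 did not.

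The order of the mean levels was Htr2c, Htr2a, Htr1b, Htr5a, Htr1a, Htr7, Htr3a, Htr1f, Htr6 and Htr4. The first 4 places were the same in replicate 2, in replicate 1 and in the mean of the second quantification. Of the 9 neighbouring pairs in this order, 1 differed in both libraries by the deposited intervals: Htr2a stood above Htr1b by a log2 ratio of 0.47 ± 0.05 (SD, n = 2). The other 8 neighbours did not differ in both. Htr2c, for example, was above Htr2a in replicate 2 alone, with a log2 ratio of 0.38 there and 0.07 in replicate 1. Farther apart, 31 of all 45 pairs differed in both libraries, and Htr2c exceeded Htr4 by a log2 ratio of 2.26 ± 0.12 (SD, n = 2), 4.80-fold. Htr1a and Htr7 exchanged places, and so did Htr1f and Htr6, between replicate 2 and replicate 1.

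On counts, 5 of the 10 receptor genes (Htr6, Htr1b, Htr2c, Htr7 and Htr2a) were called higher in replicate 2 and 0 lower. Among the 17965 annotated genes that averaged at least 10 counts, 20.9% were called higher and 16.8% lower, and among the 14450 nuclear protein-coding ones 24.2% were called higher and 12.7% lower. The median log2 ratio was 0.27 over the 10 receptor genes, 0.03 over all genes tested and 0.05 over protein-coding genes. Called members came from each G protein class: Htr2a and Htr2c of the Gq pair, Htr1b of the Gi/o group, and Htr6 and Htr7 of the Gs group. Larger ratios than that of Htr6 were found in 2.24% of the protein-coding genes, and larger ones than those of Htr1b and Htr2c in 2.97% and 2.99%. Among protein-coding genes with a mean count of 50 to 1000 the central 95% of log2 ratios ran from -0.50 to 0.52, and Htr6, Htr1b and Htr2c lay above it. On deposited TPM their log2 ratios were smaller, 0.54 against 0.68 on counts for Htr6, 0.20 against 0.59 for Htr1b and 0.44 against 0.58 for Htr2c. The other members except Htr4 were also lower on TPM, such as Htr2a at 0.13 against 0.27 and Htr1a at -0.20 against -0.07. A lower ratio on TPM was therefore not particular to Htr6, Htr1b and Htr2c. No central 95% range was computed for ratios of TPM.

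**Figure D3:**
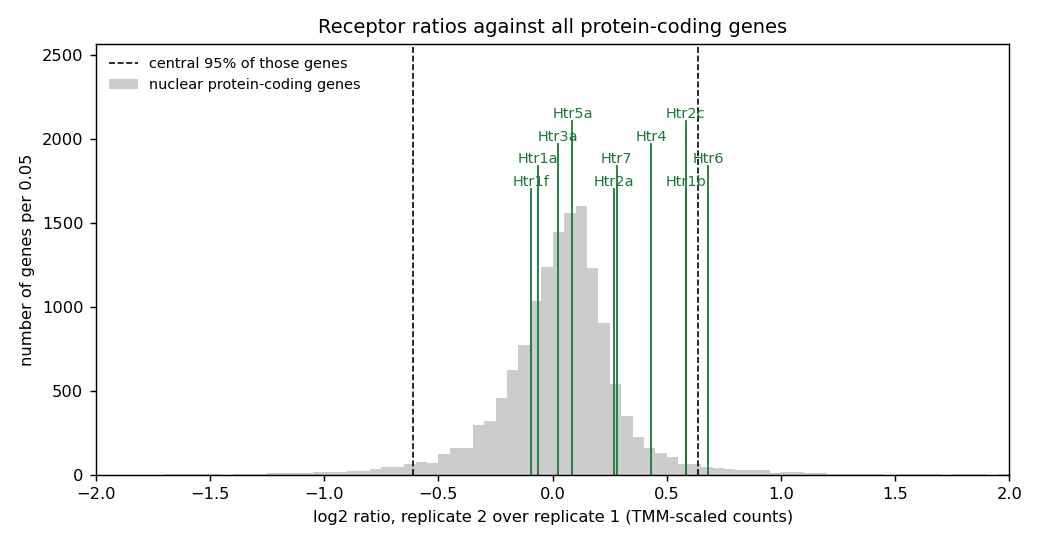
Histogram of log2 ratios of replicate 2 over replicate 1 (x axis) for nuclear protein-coding genes averaging at least 10 counts (y axis, genes per bin of 0.05), with a vertical line at the ratio of each receptor gene; 49 genes fall outside the axis. Htr6 lies beyond the upper dashed line (0.63), Htr1b and Htr2c lie just inside it, and Htr1f and Htr1a lie below 0.

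Several of these genes are known from the striatum as well, among them Htr1b, Htr2c, Htr4 and Htr6, and Htr2c is also abundant in the choroid plexus. Striatal markers had log2 ratios of 0.83 to 2.48, with a median of 1.11. Drd2, the dopamine receptor of the indirect striatal pathway, had 10.7 TPM in replicate 2 and 2.09 TPM in replicate 1, and Ppp1r1b, the dopamine-regulated phosphatase inhibitor of striatal projection neurons, had 134 TPM in replicate 2 and 66.1 TPM in replicate 1. All 10 receptor genes had ratios below the lowest striatal marker, Pde10a at 0.83. Of 8 choroid plexus markers 3 were detected in both libraries, 2 of the 5 deep enough to test were higher in replicate 2 and none lower, and their sum was 21.3 TPM in replicate 2 and 13.6 TPM in replicate 1; the most abundant, Ttr, had 17.1 TPM in replicate 2 and 9.59 TPM in replicate 1. The part of either tissue in the receptor ratios was not tested.

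Markers of cortical cells moved less. Excitatory neuron markers had a median log2 ratio of 0.06 (1 higher and 1 lower of 4), and deep-layer markers one of 0.25 (3 higher and 0 lower of 7). The 3 higher were Foxp2 at 0.46 and Bcl11b at 0.39, which striatal neurons also express, and Tle4 at 0.25 (0.15 to 0.36). Not called were Cplx3 at 0.32 (-0.07 to 0.72), Etv1 at 0.00, Syt6 at -0.03 and Fezf2 at -0.08 (-0.25 to 0.09). Microglial markers were higher in 3 of 3 cases, with a median of 0.22, and oligodendrocyte markers in 2 of 3 with 0 lower, with a median of 0.20. Of 3 endothelial markers 2 were higher and 1 was lower, with a median of 0.21, and of 3 astrocyte markers 0 were higher and 1 was lower, with a median of 0.04. Medians were 0.10 for the other interneurons (3 higher and 0 lower of 5), 0.05 for the claustrum (1 higher and 1 lower of 4), 0.00 for the thalamus (1 higher and 0 lower of 4) and -0.05 for the hippocampus (0 higher and 0 lower of 4).

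**Figure D4:**
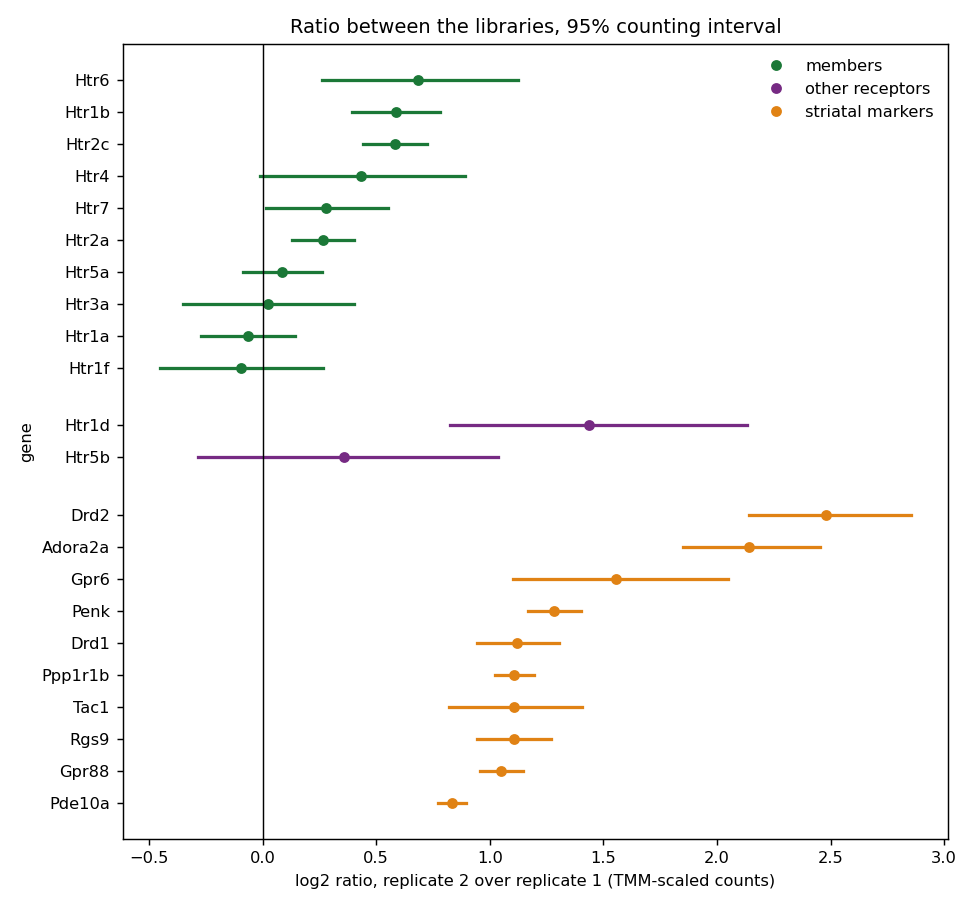
Log2 ratio of replicate 2 over replicate 1 (x axis; points) with 95% counting intervals (lines) for the 10 receptor genes, 2 further receptor genes and 10 striatal markers (y axis). Every striatal marker lies at 0.83 or above, and the receptor genes spread from -0.10 to 0.68, with Htr1d at 1.44.

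Further receptor genes of the family were near or under detection. Htr1d, a Gi/o-coupled relative of Htr1b, had 2.56 TPM (1.86 to 3.81) in replicate 2 and 0.71 TPM (0.56 to 1.89) in replicate 1. The intervals overlapped slightly. On 94 and 27 counts its log2 ratio of 1.44 (0.83 to 2.13) was beyond that of every receptor gene above. The second quantification put the libraries closer, at 2.58 TPM in replicate 2 and 1.33 TPM in replicate 1. Htr5b, the paralog of Htr5a, had 1.42 TPM in replicate 2 and 1.21 TPM in replicate 1, with a ratio of 0.36 (-0.28 to 1.04) that was not called. Htr2b had 1 count in each library. Htr3b, the partner subunit of Htr3a in heteromeric channels, had 0 counts in both in the first quantification, which allows up to 3 counts a library. The second quantification put it at 0.06 TPM in replicate 2 and 0.29 TPM in replicate 1.

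The cortex held receptor message with little message for making serotonin. Tph2, the enzyme of neuronal serotonin synthesis, had 9 counts in replicate 2 and 8 in replicate 1, and Slc6a4, the serotonin transporter, had 2 in replicate 2 and 0 in replicate 1; both were under 1 TPM, as were Tph1, the vesicular transporter Slc18a2 and the organic cation transporter Slc22a3. The breakdown enzymes were present: Maob had 7.66 TPM in replicate 2 and 6.73 TPM in replicate 1, and Maoa had 7.47 TPM in replicate 2 and 6.50 TPM in replicate 1. Both were called higher, with log2 ratios of 0.34 and 0.33. Ddc, the decarboxylase that serotonin and dopamine synthesis share, was at 1.8 TPM in replicate 2 and 1.89 TPM in replicate 1. Slc29a4, a low-affinity monoamine transporter, was lower in replicate 2, at 2.62 TPM against 4.50 TPM in replicate 1, with a log2 ratio of -0.48 (-0.82 to -0.15). In all, 2 of the 5 genes of this list that were deep enough to test were higher and 1 was lower.

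The G protein alpha subunits listed here (Gi, Go, Gz, Gq, G11, Gs and Golf) stood above the 10 receptor genes, most of them far above. The lowest, Gnai3 (Gi, picked out after its values were seen), had 13.1 TPM in replicate 2 and 13.4 TPM in replicate 1, close to the 12.7 TPM of Htr2c in replicate 2. Among the alpha subunits, Gnas (Gs) had 794 TPM in replicate 2 and 795 TPM in replicate 1, Gnao1 (Go) 305 TPM and 317 TPM, Gnai2 (Gi) 103 TPM and 97.2 TPM, and Gnaq (Gq) 68.9 TPM and 77.0 TPM, in replicate 2 and replicate 1. Gnal, the Golf subunit that striatal neurons use, had 83.1 TPM in replicate 2 and 64.0 TPM in replicate 1, a log2 ratio of 0.49 (0.43 to 0.54). By count, 3 of 5 Gi, Go and Gz genes, 1 of 2 Gq and G11 genes and 2 of 2 Gs and Golf genes were called higher and none lower, and outside Gnal their log2 ratios were at most 0.16.

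Effector genes (phospholipase C beta, adenylate cyclase and GIRK channel genes) split, with 3 of 13 higher and 5 lower in replicate 2 and a median log2 ratio of -0.01. The most abundant was Adcy1, a calcium-activated adenylate cyclase, at 123 TPM in replicate 2 and 148 TPM in replicate 1, a ratio of -0.14 (-0.16 to -0.11). Plcb1, a target of Gq, followed at 71.4 TPM in replicate 2 and 82.8 TPM in replicate 1, with a ratio of 0.00 (-0.05 to 0.04). Genes picked out after their values were seen were Adcy5, the main adenylate cyclase of the striatum, with the highest ratio of the list at 0.60 (0.54 to 0.65), and Kcnj6, a GIRK subunit, with the lowest at -0.28 (-0.38 to -0.18).

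Receptor partners and editing enzymes were detected in 10 of 10 cases, with 4 higher and 0 lower and a median log2 ratio of 0.06. Grk2, a kinase that desensitises receptors, had 99.0 TPM in replicate 2 and 106 TPM in replicate 1, and Arrb1, a beta-arrestin, 77.0 TPM and 92.7 TPM, in replicate 2 and replicate 1. The editing enzyme Adar had 64.8 TPM in replicate 2 and 70.6 TPM in replicate 1, a ratio of 0.08 (0.03 to 0.14). Cdk5, a kinase that binds the Htr6 receptor, had 55.3 TPM in replicate 2 and 58.4 TPM in replicate 1.

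**Figure D5:**
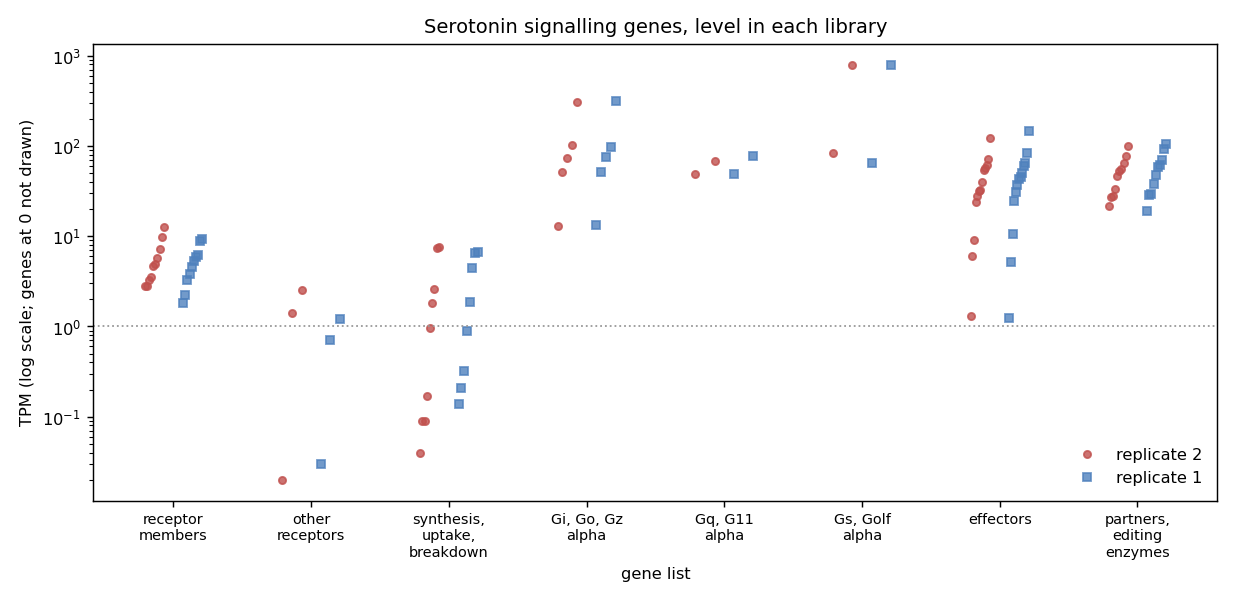
TPM (y axis, log scale; genes at 0 are not drawn) of the 10 receptor genes and of 7 lists of related genes (x axis), each point 1 gene, in replicate 2 (circles) and replicate 1 (squares); the dotted line is 1 TPM. The receptor genes run from 1.84 to 12.7 TPM, every listed alpha subunit lies above them, and part of the synthesis list lies under 1 TPM.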

How the data were processed

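Total RNA-seq of 1 group was analysed in 2 libraries. The authors deposited expected counts, which are estimates of reads per gene and transcript, and estimated counts of a second transcript table; neither is normalized. The deposited TPM values are scaled per effective length over all listed features, and the deposited tables give, per the file headers, bounds of a TPM credibility interval and each transcript's percent of its gene's TPM. Assembly mm10 (GRCm38) and annotation GENCODE M21 are named in the deposited file lists. The column layouts are those of RSEM and kallisto, and the first tables were derived from a transcriptome alignment. Aligner, versions, settings, the level of the credibility interval and strand use are not given in these sources. Since reads were divided among transcripts, overlapping genes can share them, and CAST variants could lower counts by an amount not measured.

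Expected counts were rounded to whole numbers and scaled by TMM in edgeR 4.0.16 (R 4.3.3) over annotated genes. For every gene averaging at least 10 counts, all 10 members among them, replicate 2 was divided by replicate 1 after adding 0.5 to each count, and the ratio is given as log2 with a 95% exact Clopper-Pearson interval. This interval covers counting error alone, because it is built from a gene's pair of counts and holds no term for variation between samples or library preparations. Sequenced reads lack molecular identifiers and need not be separate molecules, so even counting error may be understated. The calculation was tested on simulated counts that held counting error alone. That test cannot show how the interval fares with variation between libraries. Alternatives used DESeq2 1.42.0 size factors, spike-ins, the second table and other thresholds. Ratios of deposited TPM had no interval of their own, and the counting interval of the count ratio was moved to them. With 1 group no p-value is given. Neighbours in level were called different where the deposited intervals were apart, in the same direction, in both libraries.

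The members and lists were chosen with earlier results of these data known. Named were all members, the 4 genes highest in mean TPM of a pathway list at most, and any under 1 TPM in both libraries; no gene was named for likeness of pattern, since 2 libraries give 1 ratio per gene. Marker genes were named outside this rule, after their values were seen. Sequences were read from the GENCODE M21 transcripts, and none is shown for Htr4.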

Additional observations from a re-analysis of the deposited data

How the results depend on the processing

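All 10 receptor genes were detected at a threshold of 0.5 TPM and in the second quantification, and 9 at 2 TPM. The 5 calls of higher became 4 with DESeq2, spike-in, protein-coding TMM or count-filtered TMM scaling (the last chosen after seeing the data). They stayed 5 in the second quantification, and 0 were lower in any of these. Leaving out the count filter could not change the calls, since all 10 genes pass it. Count-filtered TMM also ended the call of Htr7 (0.26). On deposited TPM the log2 ratio of Htr4 was 0.61, and the counting interval moved to that ratio excluded 0. The deposited TPM intervals of Htr4 nevertheless overlapped between the libraries. Ratios near 0 changed sign. Htr3a went to -0.00412 with DESeq2, -0.104 with spike-ins, -0.0304 with protein-coding TMM, -0.00216 with count-filtered TMM and -0.119 on deposited TPM. Htr5a went to -0.0392 with spike-ins and -0.0469 on deposited TPM, and Htr1f to 0.0885 in the second quantification. Another scaling of the same counts moves every ratio by the same amount, which can carry a ratio near 0 across it. For deposited TPM and the second quantification the cause was not tested. Neighbours that differed numbered 3 where the mean log2 difference had to exceed 3 SD, and 1 to 5 with either library left out (5 in replicate 2 alone), where a single library has to show the difference. Leading transcripts held for 4 to 5 genes. All 10 levels were higher in the second quantification (3.61 TPM for Htr1f to 15.8 TPM for Htr2c), and when rescaled to protein-coding genes (5.13 TPM for Htr4 to 24.3 TPM for Htr2c). Low counts limit Htr4, Htr6, Htr3a and Htr1f, whose counting intervals are the widest of the 10. No paired analysis was possible because the series has 1 group.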
